A study of Mus with 4 samples.

Results

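The genes that load peptides on MHC class I were read in a murine podocyte cell line with and without the active form of OASIS, the transcription factor also called Creb3l1. The group holds 10 genes chosen by their symbols, with earlier results of these data known. They are H2-K1 and H2-D1, the classical heavy chains, B2m, the light chain, Tap1, Tap2 and Tapbp of the peptide loading complex, Psmb8, Psmb9 and Psmb10, the catalytic subunits of the immunoproteasome, and Nlrc5, the transactivator of class I genes. The deposited arrays carried 17 probes for them, out of 56605 probes for 26893 symbols.

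MHC class I molecules carry peptides of cytosolic proteins to the cell surface, where CD8+ T cells read them. The proteasome cuts the peptides, and in cells that receive interferon its catalytic subunits are exchanged for Psmb8, Psmb9 and Psmb10. Tap1 and Tap2 form the transporter that brings the peptides into the endoplasmic reticulum, where tapasin, encoded by Tapbp, holds the transporter and the empty heavy chain together. Nlrc5 acts at class I promoters, and interferons raise most of these genes.

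The cells were an immortalized murine podocyte cell line, differentiated without interferon-γ in both groups. Podocytes are the epithelial cells of the renal filter. As background, lines of this kind grow under interferon-γ because their temperature-sensitive large T antigen is driven by the promoter of a class I heavy chain. The Venus group received a lentivirus for Venus, a yellow fluorescent protein, and the OASIS group received a lentivirus for the N-terminal active fragment of OASIS. Cells were exposed to the vector for 24 h at a multiplicity of infection between 200 and 500, and RNA was taken at 48 h. Each group had 2 samples, called replicates 1 and 2. The labels do not say whether they came from separate cultures, so that p-values measure only the spread between these samples.

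Each sample was hybridized to a 1-colour Agilent array. The arrays shared 1 slide and 1 scan. Between 33938 and 34418 of 59305 spots per array were well above background, and none was saturated. Over all probes, the log2 values correlated at r = 0.997 between the Venus arrays, at 0.995 between the OASIS arrays and at 0.973 to 0.978 between groups. Precision is limited by how few arrays there are. With 2 arrays against 2, an exact permutation test of a single value cannot give a two-sided p below 0.333, so that the tests below are those of limma, fitted over all 31598 probes that met the filter on background. Of the labelled cell type's markers, 9 of 12 were above background on at least 1 array, and Ptpro and Tcf21 were among those above it on none. Fewer cells of a type and less RNA per cell cannot be told apart in such samples.

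No gene of the group passed the threshold, set at a fold over 2 or under 0.5 with a Benjamini-Hochberg adjusted p under 0.1. By the brightest probe of each gene, 0 of 10 were past it in either direction, against 1.85% of 16318 genes past it as lower and 6.21% as higher in OASIS. With no limit on the fold, limma called 0 of 10 at an adjusted p under 0.1, against 18.1% of all genes as lower and 18.6% as higher. None of the 10 had an unadjusted p under 0.05 either, by limma or by the t-test that the study's methods name. The log2 fold changes, OASIS minus Venus, ran from -0.47 for Psmb9 to 0.17 for H2-K1, with a median of -0.11 where the median over all genes was -0.056.

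**Figure D1:**
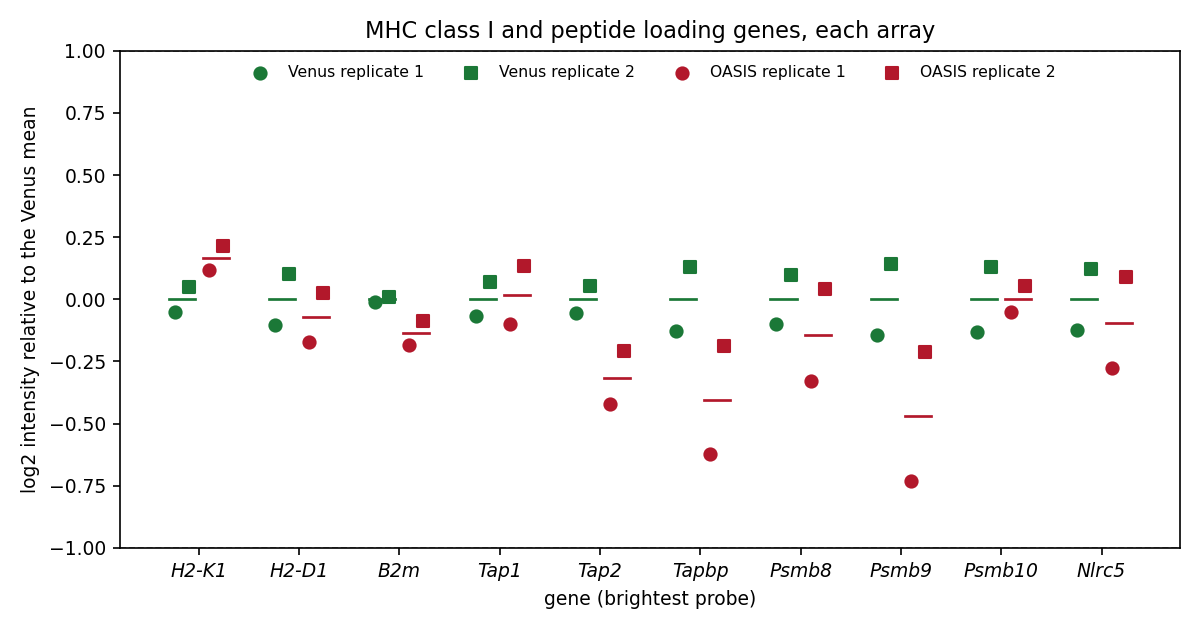
The log2 intensity of each gene's brightest probe is plotted for every array relative to the mean of the Venus arrays (y axis) for the 10 genes (x axis), with a marker for each array and a bar at each group's mean. The points of most genes overlap between the groups or lie close together, and the OASIS points of Psmb9, Tapbp, Tap2 and B2m lie below both Venus points.

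Both OASIS arrays lay below both Venus arrays for 4 genes, B2m, Tap2, Tapbp and Psmb9. That order held for 39.4% of all genes, so that 4 of 10 is near the background. Both OASIS arrays lay above both Venus arrays for H2-K1 alone, an order found in 31.5% of all genes. The groups overlapped for the other 5 genes. The intervals rest on the spread between these samples and are not adjusted for the number of genes, so they bound no effect in other cultures. The 95% interval of the difference stayed within 2-fold in either direction for 9 of the 10 genes, the exception being Psmb9, and 12638 of 16318 genes had such an interval.

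The heavy chains and their partner differed little between the groups. Values below are log2 intensities relative to each array's 75th percentile, which allows a probe to be compared between arrays but not with another probe. H2-K1, the K heavy chain, read 6.54 and 6.64 in Venus and 6.71 and 6.81 in OASIS. The OASIS arrays were the higher pair, by a gap no wider than that between replicates, and the fold was 1.12 with a 95% interval of 0.923 to 1.37 (adjusted p = 0.308 by limma). The other H2-K1 probe read 4.71 and 4.94 in Venus and 4.96 and 4.93 in OASIS, where the second Venus array lay between the OASIS arrays.

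H2-D1, the D heavy chain, read 5.14 and 5.35 in Venus and 5.07 and 5.27 in OASIS. The groups overlapped, and the fold was 0.950 with an interval of 0.744 to 1.21 (adjusted p = 0.721 by limma). B2m, the invariant light chain without which heavy chains do not reach the surface, read 7.12 and 7.14 in Venus and 6.95 and 7.04 in OASIS. Here the OASIS arrays were both lower, at a fold of 0.911 with an interval of 0.756 to 1.10 (adjusted p = 0.383). A second B2m probe, annotated to a cDNA clone, read -2.02 and -2.17 in Venus and -2.81 and -2.28 in OASIS. It was lower on both OASIS arrays too, at a fold of 0.731 with an interval of 0.501 to 1.07 (adjusted p = 0.175 by limma).

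Heavy chain genes share long stretches of sequence. Probe sequences were not analysed here, so that the share of signal that a heavy chain probe takes from a related gene is uncertain.

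**Figure D2:**
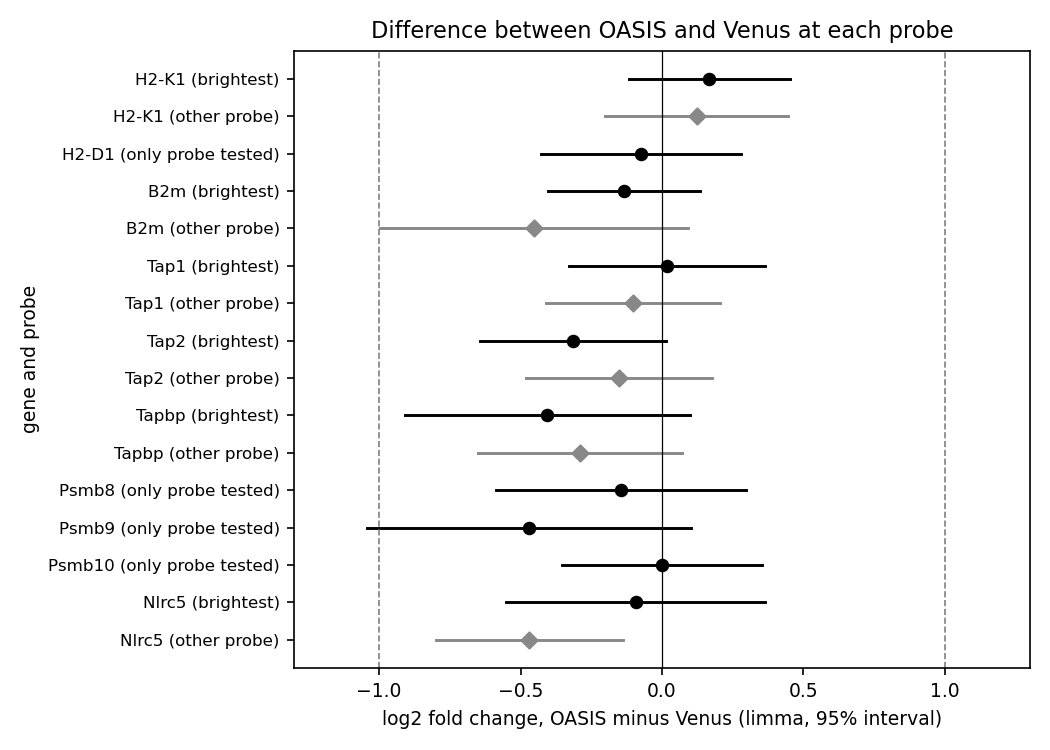
The log2 fold change, OASIS minus Venus, of each of the 16 probes tested is drawn with its 95% interval from limma (x axis) for each gene and probe (y axis), with dashed lines at 2-fold. All intervals but that of the dimmer Nlrc5 probe include 0, and all but that of Psmb9 stay within 2-fold in either direction.

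Neither subunit of the transporter passed the test. Tap1 read 2.77 and 2.91 in Venus and 2.74 and 2.98 in OASIS. The OASIS values lay on either side of the Venus values, and the fold was 1.01 with an interval of 0.796 to 1.29 (adjusted p = 0.933 by limma). Its dimmer probe had a fold of 0.932, also with overlapping groups.

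Tap2 read 3.50 and 3.61 in Venus and 3.13 and 3.34 in OASIS. Both OASIS arrays were lower, at a fold of 0.804 with an interval of 0.640 to 1.01 (adjusted p = 0.134 by limma). The other Tap2 probe was dim, near -5.5 on every array. It gave a fold of 0.900 and overlapping groups.

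Tapbp, which encodes tapasin, read 3.51 and 3.77 in Venus and 3.02 and 3.45 in OASIS. OASIS replicate 1 was well below the other arrays, while OASIS replicate 2 lay just under Venus replicate 1. The fold was 0.755 with an interval of 0.532 to 1.07 (adjusted p = 0.188 by limma), and a second, dimmer probe gave 0.817 in the same order of arrays.

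Of the immunoproteasome subunits, Psmb9 had the lowest fold in the group. Psmb9 read 1.77 and 2.06 in Venus and 1.18 and 1.70 in OASIS. OASIS replicate 1 was the lowest array by a wide gap, and OASIS replicate 2 lay just under Venus replicate 1. The fold was 0.721, a 1.39-fold lower mean, with an interval of 0.485 to 1.07 (adjusted p = 0.179 by limma). The other Psmb9 probe, annotated to an Ensembl transcript, was not well above background on any array and was not tested.

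Psmb8 read 2.20 and 2.39 in Venus and 1.97 and 2.34 in OASIS. OASIS replicate 2 lay between the Venus arrays, and the fold was 0.905 with an interval of 0.666 to 1.23 (adjusted p = 0.567 by limma). Psmb10, the third of these subunits, read 4.69 and 4.95 in Venus and 4.77 and 4.87 in OASIS. Both OASIS values lay within the Venus pair, at a fold of 1.0 with an interval of 0.784 to 1.28 (adjusted p = 0.996).

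The proteasome subunits that the 3 immunoproteasome subunits replace were read beside them. Psmb5, Psmb6 and Psmb7 are the constitutive counterparts of Psmb8, Psmb9 and Psmb10. Their log2 fold changes were -0.10, 0.26 and -0.09. None of the 7 constitutive β subunits listed passed limma at an adjusted p under 0.1, where 18.1% of all genes did as lower and 18.6% as higher. Psmb2, 1 of the 7, stood at 0.28 with an unadjusted p under 0.05. Within each array, the log2 ratio of Psmb9 to Psmb6, centred on Venus, was -0.15 and 0.15 in Venus and -1.03 and -0.42 in OASIS. The groups did not overlap and differed by -0.73, the widest of the 3 pairs. For Psmb8 to Psmb5 the difference was -0.045 and for Psmb10 to Psmb7 it was 0.089. No test across all genes was run on these ratios, and neither Psmb9 nor Psmb6 passed on its own.

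**Figure D3:**
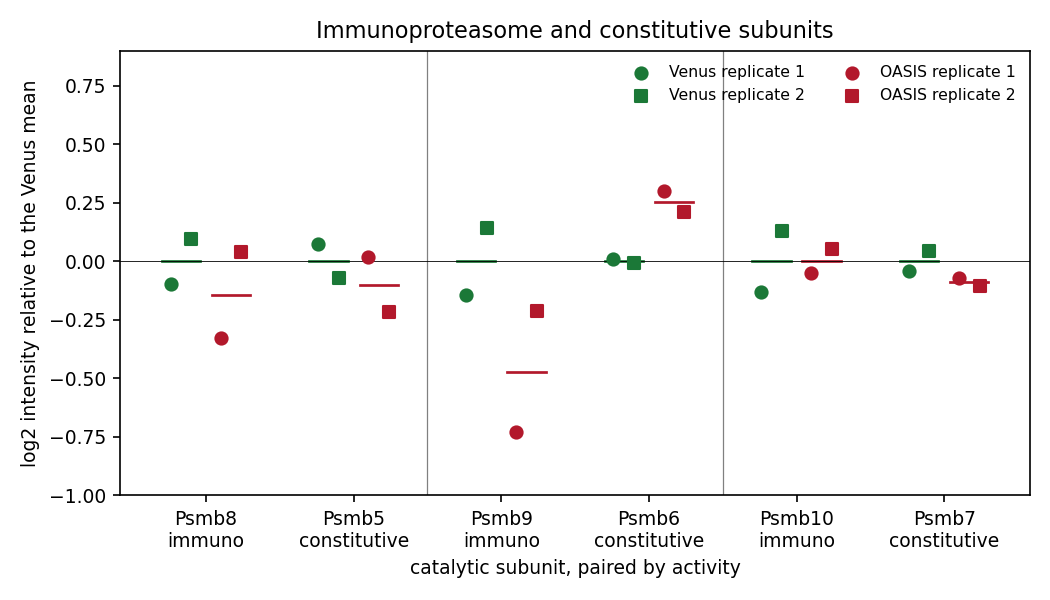
The log2 intensity of each immunoproteasome subunit and of its constitutive counterpart is plotted for every array relative to the Venus mean (y axis), with bars at group means and the 6 subunits side by side by activity (x axis). Psmb9 lies lower and Psmb6 higher on both OASIS arrays, while the groups overlap for Psmb5, Psmb8 and Psmb10.

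Of 8 further proteasome activator and assembly genes tested, the median log2 fold change was 0.03 and none passed the 2-fold threshold. Over all genes 1.85% passed it as lower and 6.21% as higher. Psme1, a subunit of the interferon-inducible activator PA28, was lower on both OASIS arrays, at 3.43 and 3.53 in Venus and 2.72 and 2.95 in OASIS (log2 fold change -0.64 ± 0.13 SE, adjusted p = 0.031 by limma). Psme4, which encodes the activator PA200, was higher, at 3.49 and 3.49 in Venus and 4.11 and 3.96 in OASIS (0.54 ± 0.11 SE, adjusted p = 0.031). No probe carried the symbol Psme2.

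Nlrc5 gave different answers by probe. The brighter probe read 1.04 and 1.29 in Venus and 0.89 and 1.25 in OASIS. Its groups overlapped, at a fold of 0.937 with an interval of 0.682 to 1.29 (adjusted p = 0.725 by limma). The dimmer probe read -3.75 and -3.59 in Venus and -4.22 and -4.05 in OASIS. Both OASIS arrays were lower by more than the gap between replicates, at a fold of 0.723 with an interval of 0.575 to 0.909 (adjusted p = 0.059). Both probes are annotated to the same transcript record. This was the single call at an adjusted p under 0.1 among the 16 probes tested, where 19.7% of all probes tested had such a call as lower, and its adjusted p ran from 0.038 to 0.29 over the settings tried. None of the 16 passed the 2-fold threshold, against 8.36% of all probes tested in either direction.

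Other regulators were read beside Nlrc5. Among 14 genes listed as regulators of class I transcription, 4 were lower and 3 higher at an adjusted p under 0.1 by limma, with a median log2 fold change of 0.08. The shares over all genes were 18.1% and 18.6%, and 7 of the 14 passed in neither direction.

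Of these calls, 6 were under 2-fold. Irf1, the interferon regulatory factor that binds class I promoters, had a log2 fold change of -0.38 (adjusted p = 0.097). Nfkb1 stood at -0.39 and Creb1 at -0.52. Nfyb and Rfxap, subunits of the complexes that bind class I and class II promoters, stood at 0.99 and 0.51, and Atf1 at 0.50. The probes of Nfyb, Atf1 and Creb1 disagreed. The mean over a gene's probes was -0.027 for Nfyb, -0.026 for Atf1 and -0.17 for Creb1, none of which passed, and a further Creb1 probe was higher at 0.78 (adjusted p = 0.012). Rela, the activating NF-κB subunit, did not pass at -0.065, and Rfx5 did not at -0.44.

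Many genes that interferon induces passed the threshold. Of 25 interferon-stimulated genes, 17 passed the 2-fold threshold as lower and none as higher by limma, with a median log2 fold change of -1.75. Over all genes 1.85% passed as lower. The 4 lowest were Mx1 at -2.63, Usp18 at -2.55, Ifit1 at -2.50 and Mx2 at -2.48. The count of 17 moved with the settings, to 4 at an adjusted p under 0.05 and 23 with normexp background correction. It was 0 with no filter on dim probes and by the t-test, where 303 and 66 of all genes passed as lower. The t-test gave none of the 25 an unadjusted p under 0.05. The size moved when single arrays were left out, while all 25 stayed below 0. Those fits leave 1 array in a group, so counts are not given and the signs do not show that the count held. The median was -1.96 without Venus replicate 1, -1.46 without Venus replicate 2, -0.94 without OASIS replicate 1 and -2.57 without OASIS replicate 2. Irf7, Stat2 and Irf9, which carry the type I interferon signal, passed as lower at -1.94, -1.37 and -1.05. None of these 3 did so with no filter on dim probes, by the t-test or at an adjusted p under 0.05. Over the alternatives they ran from -2.76 to -1.13, from -1.91 to -0.83 and from -1.51 to -0.59. Jak2 and Tyk2, kinases at interferon receptors, were called lower under 2-fold at -0.46 and -0.43. Socs1 and Socs3, which brake Jak-Stat signalling, passed as higher at 1.75 and 1.14, and neither did so by the t-test. The probe of Ifnb1, the gene of interferon-β, was not well above background in OASIS and met the filter through Venus alone. It passed as lower (adjusted p = 0.016 by limma). With dim values raised as described below, its OASIS mean was 5.64-fold lower, with no allowance for spread between arrays. Ifnb1 did not pass by the t-test, nor with normexp background correction, where its log2 fold change was -0.92. Ifnl3, of interferon-λ, was called higher under 2-fold at 0.60.

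**Figure D4:**
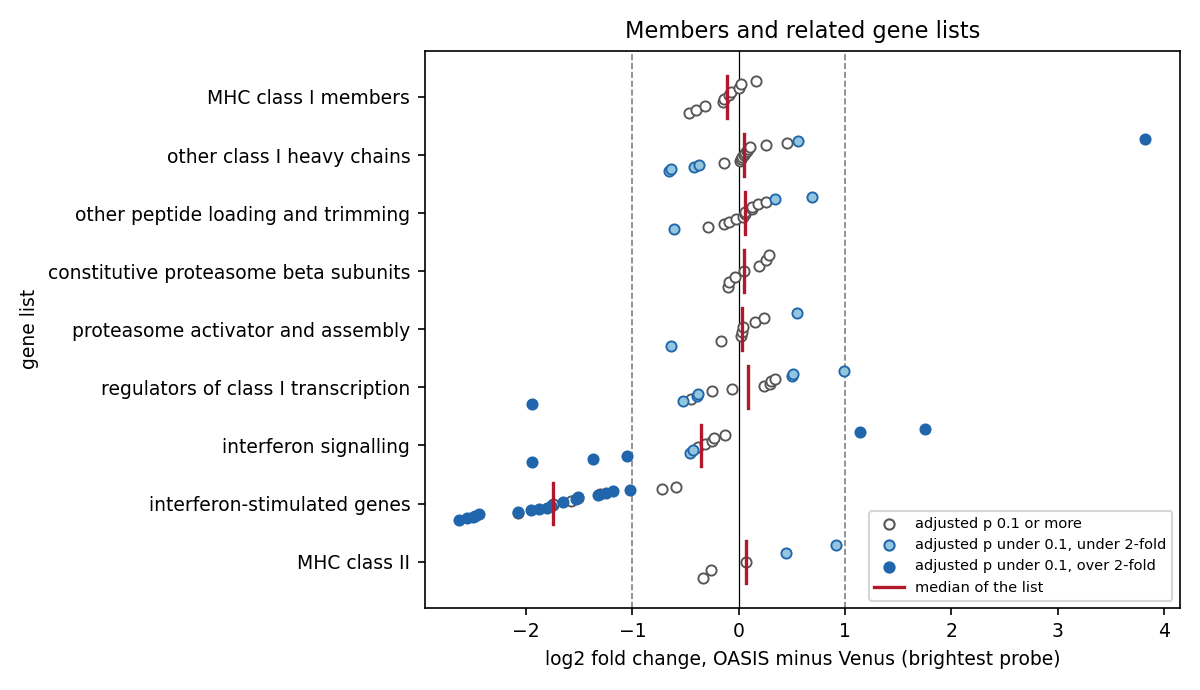
Each point is the log2 fold change, OASIS minus Venus, of a gene's brightest probe (x axis) in the 10 class I genes and the related lists (y axis), with the fill showing the limma call the red bar the median and dashed lines 2-fold. The point farthest to the right is the fitted value of H2-Q1, dim in Venus, and is no bound, and the class I genes lie between -0.47 and 0.17, while the interferon-stimulated genes have a median of -1.75.

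The class I genes had a shared order among the arrays. Replicate 1 was below replicate 2 in both groups for all 10 genes by their brightest probes, an order that 28.2% of all genes had. OASIS replicate 1 was the lowest array for 8 of the 10, where it was the lowest for 31.7% of all genes, and it was the lowest for 25 of 25 interferon-stimulated genes. The size of the gap differed. The median gap between the OASIS arrays was 0.22 for the class I genes and 1.61 for the interferon-stimulated genes, on the log2 scale. Between the Venus arrays it was 0.20 and 0.43. The 10 genes share a library on each array, so that this order is a description of 4 arrays.

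**Figure D5:**
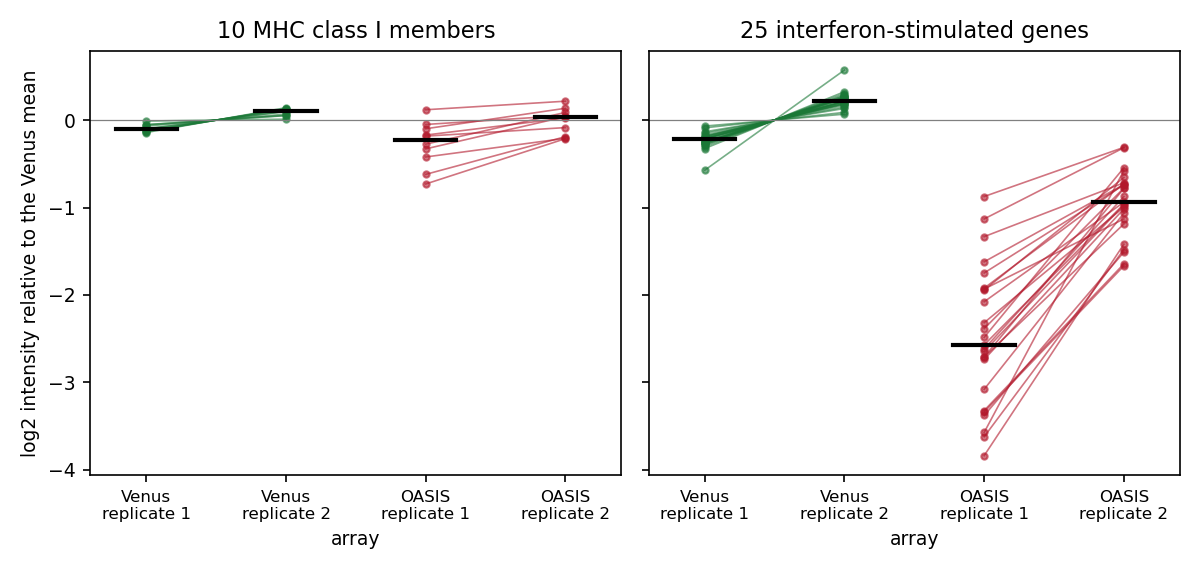
The log2 intensity relative to the Venus mean (y axis) is drawn across the 4 arrays (x axis) for the 10 class I genes and for 25 interferon-stimulated genes, a line for each gene. OASIS replicate 1 is the lowest array for 8 of the class I genes and for 25 of the interferon-stimulated genes, which lie much farther below Venus.

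The members differ in where they lie. The deposited annotation places H2-K1, H2-D1, Tap1, Tap2, Tapbp, Psmb8 and Psmb9 in band qB1 of chromosome 17, B2m in qE5 of chromosome 2, and Nlrc5 and Psmb10 in qC5 and qD3 of chromosome 8. In the gene order of assembly GRCm38.p6, Psmb9, Tap1, Psmb8 and Tap2 are neighbours with 0 protein-coding genes between them. Along this stretch the log2 fold changes were -0.47 for Psmb9, 0.02 for Tap1, -0.14 for Psmb8 and -0.31 for Tap2, with overlapping 95% intervals, and the differences between the genes were not tested.

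Of 17 other class I heavy chains tested, 11 passed in neither direction. limma called 4 lower and 2 higher at an adjusted p under 0.1, where 18.1% and 18.6% of all genes had such calls, and the median log2 fold change was 0.05. H2-T10 stood at -0.65 and H2-T9 at -0.63, both of the T region, with Mr1, which presents vitamin metabolites, at -0.42 and H2-Q4 at -0.37. Each had both OASIS arrays below both Venus arrays. H2-Q6 was higher at 0.56 (adjusted p = 0.051). H2-T23, which encodes the Qa-1 heavy chain, stood at 0.06 with overlapping groups.

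H2-Q1 was the single heavy chain past the 2-fold threshold. It did not stand well above background in Venus, at -8.30 and -8.36, and read -4.02 and -4.99 in OASIS (adjusted p = 0.0065 by limma). With dim values raised as described below, its OASIS mean was 3.07-fold higher, with no allowance for spread between arrays. With normexp background correction or by the t-test H2-Q1 did not pass. Over the alternatives its log2 fold change ran from 0.74 to 4.31. The probes of H2-Q10 disagreed, a point chosen after its values were seen. The 2 brightest had log2 fold changes of 0.11 and 0.04, and another had 1.20 (adjusted p = 0.029 by limma). The dimmest, not well above background in Venus, read -1.21 and -2.32 in OASIS against -6.10 and -6.14. Like the H2-Q1 probe, it met the filter through OASIS alone, so its test was not independent of the difference.

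Of 14 further genes of peptide loading and trimming, 11 passed in neither direction at an adjusted p under 0.1 by limma, as did 10316 of 16318 genes. The call was lower for 1 and higher for 2, where 18.1% and 18.6% of all genes had such calls. Calr and Canx, the chaperones calreticulin and calnexin, stood at -0.14 and 0.06. Pdia3, the disulphide isomerase of the loading complex, stood at 0.18, Erap1, which trims peptides in the endoplasmic reticulum, at 0.25, and Tapbpl, the tapasin relative TAPBPR, at 0.06. Ergic1, a protein of the ER-Golgi intermediate compartment, was lower at -0.60 (adjusted p = 0.024 by limma). Sar1b, a GTPase of COPII vesicles, was higher at 0.69 (adjusted p = 0.035) and the peptidase Blmh at 0.34 (adjusted p = 0.074).

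MHC class II genes were mostly dim. Of 11 symbols on the array, 5 had a probe that was tested, and Ciita, the class II counterpart of Nlrc5, was not above background on any array. H2-DMb1 and H2-DMa, which edit class II peptides, were higher at 0.91 (adjusted p = 0.022 by limma) and 0.44 (adjusted p = 0.065), both under 2-fold. H2-Ab1 stood at 0.07 and Cd74, the invariant chain, at -0.34 with overlapping groups.

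The calls under 2-fold in these related lists, 21 in all, depended on the settings. The t-test kept 1 of them, that of Mr1, while 13 were lost with no filter on dim probes and 12 at an adjusted p under 0.05. Calls over all genes fell under the same settings, from 6002 to 1164, 3903 and 3836. When single arrays were left out, 0 of the 21 changed sign without either Venus array, and 1 did without each OASIS array. These fits leave 1 array in a group, so their calls are not given and the signs do not show that calls held.

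Markers of other cells were read for the same arrays, since leukocytes are rich in class I. Of 10 leukocyte markers, 8 were above background on at least 1 array, and Adgre1 was on none. Their summed level, in units of each array's 75th percentile, was 20.6 to 21.6 in Venus and 17 on both OASIS arrays. Single markers went both ways at an adjusted p under 0.1 by limma, with Itgam at -0.51, Cd14 at -0.36 and Csf1r at 0.74. Itgax, dim in Venus, was also called higher, by 2.13-fold with its dim values raised as described below. Of 6 endothelial markers only Pecam1 was above background, and the summed level was at most 0.051 on every array. Mesangial and pericyte markers summed to 73.6 to 74.8 in Venus and 60.8 to 62.4 in OASIS, with Gata3 called lower at -0.82 and Cspg4 higher at 1.48. Tubular markers summed to 12.3 to 14.5 and 14.9 to 17.5, with Aqp2 called lower at -0.39 and Lrp2 higher at 1.62. Podocyte markers summed to 60.1 to 63.0 and 58.0 to 63.2, and in that list Wt1 (4.62, adjusted p = 0.0021 by limma) and Cd2ap (1.09, adjusted p = 0.0083) passed the 2-fold threshold as higher. Bright probes carry most of such a sum. The part of these markers in the values above was not tested.

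The mean profile of the 10 genes, each centred on its own mean over the arrays, was -0.018 and 0.16 in Venus and -0.20 and 0.059 in OASIS. The 5 genes outside the group with the nearest profile were Serpine2, Igfbp7, Dgkq, Msrb1 and Synpo, at root mean square distances of 0.0048 to 0.017 over 4 arrays. None of these 5 passed limma at an adjusted p under 0.1.

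The values of Psmb9, Tapbp and Tap2 were those nearest to a call. These genes passed limma at an adjusted p under 0.1, still under 2-fold, in the same 4 alternatives of 15, which were normexp background correction, an intensity trend in the fit, the replicate number as a block and the fit without OASIS replicate 2. Their adjusted p ran over those from 0.051 to 0.091, from 0.060 to 0.087 and from 0.049 to 0.099. The signs of Tap1 and Psmb10 turned to slightly below 0 under quantile and median scaling, and no direction is given for either.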

How the data were processed

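The labels give 4 samples of murine podocyte RNA, 2 with Venus and 2 with active OASIS. The deposited scanner files hold, per spot, the background-corrected intensity made for the authors by Agilent Feature Extraction 12.1.0.3. The authors also deposited intensities scaled by a single factor per array in tabular form, with a detection score per spot (the highest score marks a signal well above background), gene symbols and bands, and gene symbols were taken from there.

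Control and outlier spots were left out, the corrected intensities were put on a log2 scale relative to each array's 75th percentile, and replicate spots were averaged by probe. Because the deposited files hold 1-colour intensities, a log2 fold change is a difference between group means. A probe was tested when at least 0.5 of its spots were well above background on both arrays of 1 group or more. A probe dim in 1 group met this filter through the other, so its test is not independent of that difference. limma 3.58.1 (R 4.3.3 and data.table, version 1.17.8) fitted the 31598 probes with lmFit and eBayes, with Benjamini-Hochberg adjustment over all of them, and the brightest probe of a gene, by its mean over the arrays, stood for it. The threshold and the t-test kept as an alternative are those of the study's methods. The fit was tested on simulated data.

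The 15 gene lists, the members among them, were chosen with earlier results of these data known. All members were named, with the genes of each list past the threshold (4 at most, or all where a count was 5 or fewer) and some that did not pass, picked after their values were seen. For a probe dim throughout a group, each dim value was raised to the lowest value well above background on its array where it lay under it. The fold then taken between the group means carries no sampling error and is no strict bound. A search of promoters for motifs was planned and not run, since promoter, protein and probe sequences were not used here, and coordinates are not given. Values of some listed genes are not reported here.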

Additional observations from a re-analysis of the deposited data

How the results depend on the processing

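None of the 10 genes of the group passed the 2-fold threshold under any of 12 alternatives that kept every array. These covered quantile and median scaling, the authors' scaled values, normexp background correction (offset 50), filters on dim probes and outlier spots kept. They also covered the mean of probes, the t-test, an intensity trend, an adjusted p under 0.05 and the replicate block. Each array was also left out in turn. The count of genes lower at an adjusted p under 0.1 was 0 and became 3 (Psmb9, Tapbp and Tap2) under normexp, the intensity trend and the replicate block, and ran from 0 to 3 when single arrays were left out. The cause was not tested. The median over the 10 genes was -0.20 without Venus replicate 1, -0.0093 without Venus replicate 2, 0.032 without OASIS replicate 1 and -0.23 without OASIS replicate 2.

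Tap1 stood at -0.010 under quantile, -0.0035 under median scaling, -0.018 under normexp and -0.042 by the mean of probes. Psmb10 stood at -0.034, -0.020 and -0.0012 under the first 3 of these, at -0.013 with the authors' scaled values and at -0.0014 with outlier spots kept. By the mean of probes Atf1 stood at -0.026 and Nfyb at -0.027. Without single arrays, Tap1 ran from -0.099 to 0.14, Psmb10 from -0.13 to 0.13, H2-D1 from -0.18 to 0.029, Psmb8 from -0.33 to 0.040, Nlrc5 from -0.28 to 0.088 and Nfyb from -0.31 to 1.15.

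The replicate numbers are shared by the groups, and the deviations of same-numbered arrays from their group means correlated at 0.26. With 2 pairs this does not establish a pairing. With the replicate number as a block, the count of class I genes lower at an adjusted p under 0.1 was 3 in place of 0, and the 2-fold counts of class I genes were unchanged. The count of interferon-stimulated genes past the 2-fold threshold as lower was 23 in place of 17, and over all genes 327 were lower and 1018 higher in place of 302 and 1014.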
